A study of Arabidopsis thaliana with 4 samples.

Results

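The copper amine oxidase genes of Arabidopsis were examined in seedlings that overexpress RECA1 and in wild-type seedlings. The set held 8 genes given by locus, namely AT1G31670, AT1G31690, AT1G31710, AT1G62810 (CuAO1), AT2G42490, AT3G43670, AT4G12290 and AT4G14940 (AO1). Every probe set that the platform annotation pairs with any of these loci was taken, at all signal levels, which gave 9 of the 22746 probe sets on the array and covered 7 of the 8 genes. AT1G31690 and AT1G31710 each had 2 probe sets, and the probe set of AT4G12290 is also paired with its neighbour AT4G12280, so its signal cannot be assigned to either gene alone. AT4G14940 had 0 paired probe sets and is not analysed here. The family was chosen by the log2 change of AT1G31690 between RECA1-OE and Col-0, which was among the largest falls of this same contrast, and the other members were then taken by function and locus. The values of the members, and the calls they receive in the fit over all probe sets, are therefore given as a description and do not count as tests.

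Copper amine oxidases are enzymes found in the cell wall and the peroxisome, among other places, that carry copper and a quinone made from one of their own tyrosines. They oxidise the primary amino groups of polyamines such as putrescine and spermidine, and release an aminoaldehyde, ammonia and hydrogen peroxide. In Arabidopsis the family is known for its part in polyamine breakdown, in cell wall and xylem development and in the hydrogen peroxide and nitric oxide signals of stress responses.

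Transcript levels were measured on 4 Affymetrix arrays, each with total RNA of whole seedlings 2 weeks old. The RECA1-OE group was 2 samples of T3 transgenic plants in the Col-0 ecotype that overexpress RECA1 (AT1G79050), a chloroplast-targeted homologue of the bacterial recombinase RecA. The control group was 2 samples of wild-type Col-0, and neither group received a treatment. The labels give neither the promoter of the transgene nor the number of independent lines, and they do not say whether the samples of a group, called biological replicates, were grown apart, so the p-values measure only the spread between these samples, which may be technical.

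The median log2 signal of the arrays lay between 7.58 and 7.63. Pearson's r across probe sets was 0.951 between the RECA1-OE arrays and 0.954 between the Col-0 arrays, against 0.923 to 0.942 between arrays of different groups. The annotation pairs 0 probe sets with RECA1, so the overexpression itself was not checked. Of the tissue markers listed, 3 of root and 2 of guard cells were measured, none of them at 0. None of the listed leaf, xylem or root cap markers had a probe set paired with a single gene, so those tissues were not checked.

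The 3 genes that lie next to each other on chromosome 1 all had lower means in RECA1-OE, while the other 4 measured members all had higher means. Taking the brightest probe set of each gene, the log2 change, RECA1-OE minus Col-0, was -2.35 to -0.44 for the 3 neighbours and 0.32 to 1.35 for the other 4 members. Their medians were -0.53 and 0.45, against -0.042 over all 22746 probe sets, of which 53.0% had a lower mean in RECA1-OE. The median of -0.53 is the value of AT1G31670 itself, a very dim gene whose SE of 0.80 exceeded the change. The neighbours include AT1G31690, by whose fall the family was chosen. Among the other 4, AT3G43670 had 0.32 ± 0.32 (SE), with overlapping groups. These medians are therefore not read as a shift of either group. In limma's test across all probe sets 1 of the 9 member probe sets was called at an adjusted p under 0.05, the brighter set of AT1G31690, where the background was 7.86%. With the dimmest 40% of probe sets left out, 4 of the 7 member probe sets that remained were called, where the background was 19.9%. Nothing is read from these shares, because the members were chosen with this contrast known. The arrays of the groups did not overlap in 8 of the 9 member probe sets, where the background was 55.9%. Of these, 5 were lower in RECA1-OE and 3 higher, against a background of 30.4% and 25.5%. In bulk seedlings, fewer cells of a type and less RNA per cell cannot be told apart.

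**Figure D1:**
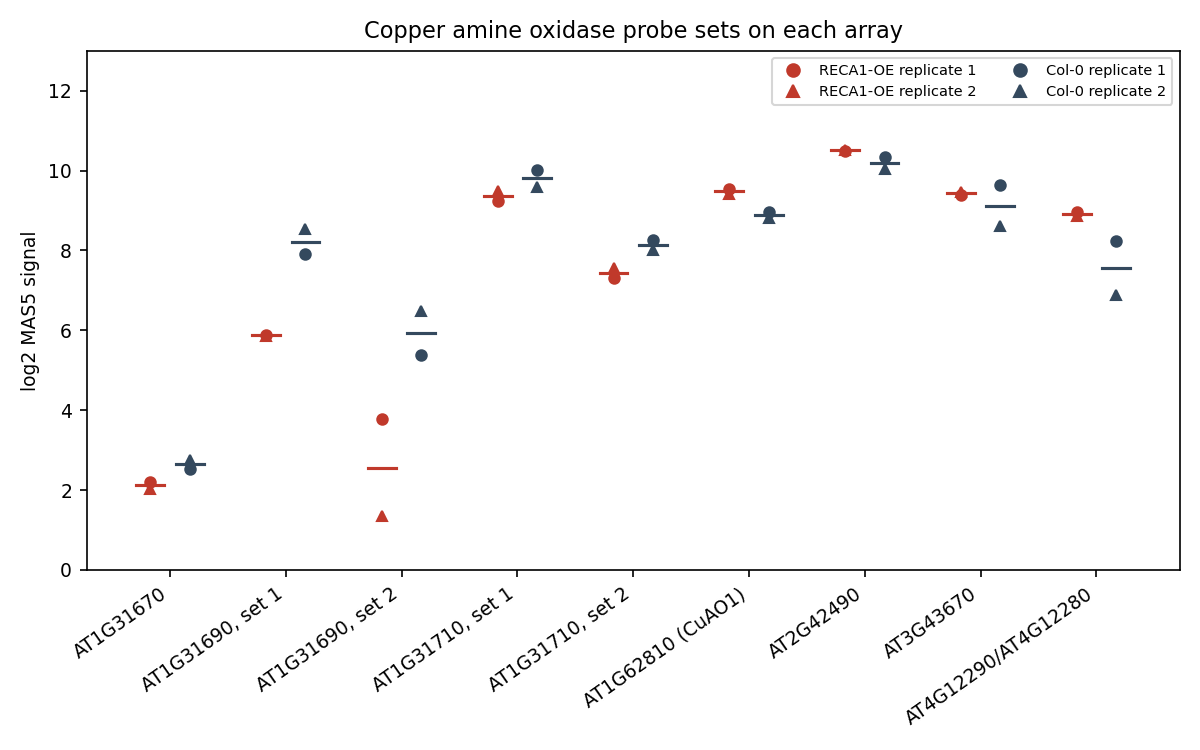
Log2 MAS5 signal (vertical axis) of the 9 copper amine oxidase probe sets (horizontal axis) on each array. Circles are replicate 1 and triangles replicate 2, red for RECA1-OE and dark blue for Col-0, and short lines are group means. Set 1 is the brighter probe set of a gene and set 2 the dimmer. All 5 probe sets of the chromosome 1 neighbours have every RECA1-OE value below every Col-0 value.

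AT1G31690 had the largest fall of any member. This gene encodes a member of the family whose loss has been linked to altered nitric oxide production in Arabidopsis seedlings. On its brighter probe set the log2 signals were 5.88 and 5.86 in RECA1-OE, against 7.90 and 8.54 in Col-0. The RECA1-OE arrays were nearly alike, and both were far below the lower Col-0 array. The means were 5.87 ± 0.02 in RECA1-OE and 8.22 ± 0.45 in Col-0 (SD, n = 2 each). The signal fell by 2.35 ± 0.30 on the log2 scale (SE), which is 5.11-fold. The RECA1-OE mean lay below 6.82, the mean signal under which the dimmest 40% of probe sets fall, so the size of the fold is uncertain. Leaving out either RECA1-OE array or Col-0 replicate 2, or fitting no mean-variance trend, ended the call. Leaving out a RECA1-OE array, or the trend, ended every call over all probe sets, so that loss is not particular to AT1G31690. The log2 change stayed between -2.67 and -2.03 with any array left out.

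The dimmer probe set of AT1G31690 moved the same way, with a wide spread. Its log2 signals were 3.78 and 1.34 in RECA1-OE, against 5.39 and 6.49 in Col-0. The groups did not overlap, but the RECA1-OE arrays lay 2.44 log2 units apart. The log2 change was -3.38 ± 0.94 (SE), a 10.4-fold lower signal, and it was not called. Leaving out RECA1-OE replicate 1 gave -4.60 and leaving out replicate 2 gave -2.16. All 4 values lie in the dim range of the array, where MAS5 signals scatter most. The probe sets of AT1G31690 thus differ in size of change and share its direction.

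AT1G31710, the next gene along, encodes a peroxisomal copper amine oxidase that oxidises putrescine and spermidine. Its brighter probe set had log2 signals of 9.24 and 9.49 in RECA1-OE, against 10.02 and 9.60 in Col-0. The groups did not overlap, and RECA1-OE replicate 2 lay close to Col-0 replicate 2. This gave a log2 change of -0.44 ± 0.18 (SE), and it was not called. The dimmer probe set had 7.32 and 7.55 in RECA1-OE, against 8.26 and 8.00 in Col-0. Its log2 change was -0.70 ± 0.20 (SE), a 1.62-fold lower signal, which passed an adjusted p under 0.05 only when the dimmest 40% of probe sets were left out. Both probe sets of this gene were therefore lower by less than those of AT1G31690.

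AT1G31670, the first of the 3 neighbours, gave very low signals. Its log2 signals were 2.21 and 2.02 in RECA1-OE, against 2.53 and 2.76 in Col-0. The groups did not overlap, yet only 6.43% of probe sets had a lower mean signal. The log2 change was -0.53 ± 0.80 (SE), so the SE exceeded the change, and it was not called. At such signals the array gives little information on this gene.

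**Figure D2:**
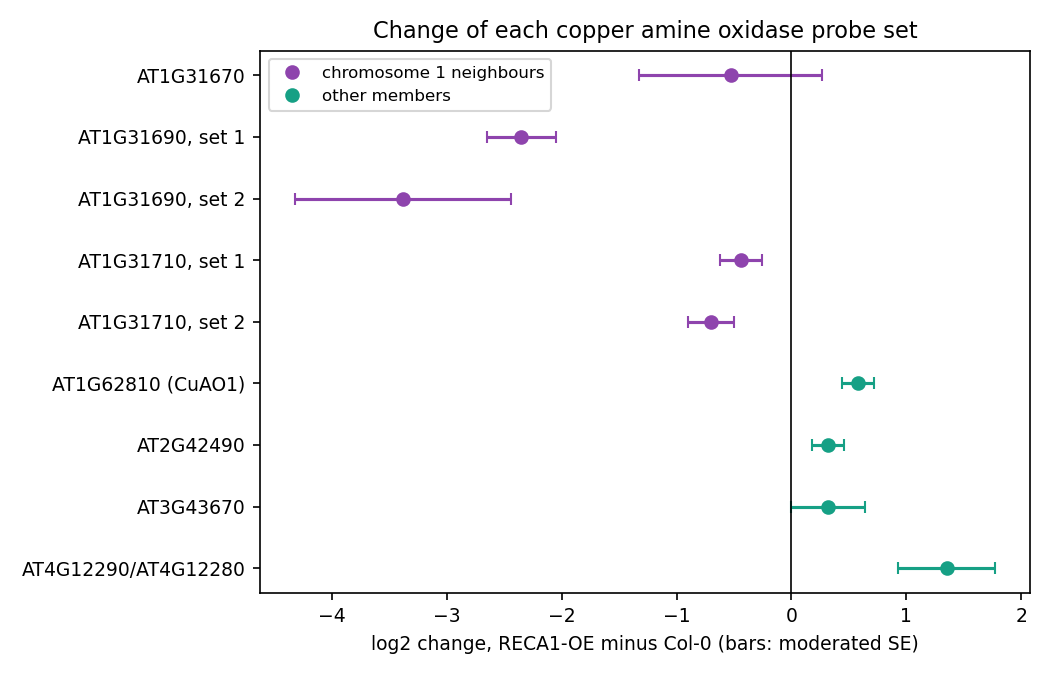
Log2 change, RECA1-OE minus Col-0 (horizontal axis), of each copper amine oxidase probe set, with limma's moderated SE as bars. Purple points are the chromosome 1 neighbours, from -3.38 to -0.44, and green points the other members, from 0.32 to 1.35. Set 1 is the brighter probe set of a gene.

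Of the other members, CuAO1 (AT1G62810) also lies on chromosome 1, away from the cluster. It encodes a secreted enzyme that oxidises putrescine and spermidine. Its log2 signals were 9.55 and 9.42 in RECA1-OE, against 8.97 and 8.82 in Col-0. Each RECA1-OE array exceeded each Col-0 array, and the arrays of a group lay within 0.14 log2 units of each other. The means were 9.48 ± 0.09 in RECA1-OE and 8.90 ± 0.10 in Col-0 (SD, n = 2 each). The log2 change was 0.58 ± 0.14 (SE), a 1.5-fold higher signal. It was not called over all probe sets, but it was called with the dimmest 40% or 60% left out. With any array left out it stayed between 0.51 and 0.66.

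The probe set shared by AT4G12290 and AT4G12280, adjacent genes on chromosome 4, had the largest positive value. AT4G12290 encodes a copper amine oxidase linked to stomatal closure. The log2 signals were 8.95 and 8.86 in RECA1-OE, against 8.24 and 6.88 in Col-0. The RECA1-OE arrays were close together, and Col-0 replicate 2 was far below Col-0 replicate 1. The log2 change was 1.35 ± 0.42 (SE), a 2.55-fold higher signal, and it was not called. Its size rested on the Col-0 arrays, with 2.03 and a call without Col-0 replicate 1, and 0.67 and no call without Col-0 replicate 2. It was also called when the dimmest 40% of probe sets were left out. AT4G12270, a further copper amine oxidase gene beside this pair, is not in the set. It was very dim, with log2 signals of 0.62 and 0.84 in RECA1-OE and 1.77 and 2.23 in Col-0, and its change of -1.27 ± 0.95 (SE) was not called. Its mean was lower in RECA1-OE, where those of the 4 measured members outside the chromosome 1 neighbours were higher. At such signals no direction can be given for AT4G12270.

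AT3G43670 had log2 signals of 9.39 and 9.47 in RECA1-OE, against 9.63 and 8.60 in Col-0. It was the only member whose groups overlapped, because the Col-0 arrays lay on either side of both RECA1-OE arrays. A log2 change of 0.32 ± 0.32 (SE) resulted, and it was not called. It was 0.83 without Col-0 replicate 1, where it was called, and it turned to -0.20 without Col-0 replicate 2. No direction can be given for this gene from these arrays.

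AT2G42490 encodes another peroxisomal enzyme of the family that acts on putrescine and spermidine. Its log2 signals were 10.50 and 10.52 in RECA1-OE, against 10.33 and 10.04 in Col-0. The groups did not overlap. The difference of 0.32 ± 0.14 on the log2 scale (SE) is a 1.25-fold higher signal, and it was not called under any setting tried. The peroxisomal enzymes AT1G31710 and AT2G42490 therefore had mean differences of opposite sign, neither of them called.

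In all 7 member probe sets outside the dimmest 40%, the Col-0 arrays lay farther apart than the RECA1-OE arrays. For CuAO1 the gaps were nearly equal, 0.14 in Col-0 and 0.13 in RECA1-OE. Among the dimmest 40%, AT1G31670 went the same way, with 0.23 in Col-0 and 0.19 in RECA1-OE. The dimmer AT1G31690 set went the other way, with 1.09 and 2.44. The share of all probe sets with a wider Col-0 gap was not counted, so nothing is read from this count. The largest Col-0 gaps of the 7 were 1.36 log2 units for the AT4G12290 and AT4G12280 probe set, 1.03 for AT3G43670 and 0.64 for the brighter AT1G31690 set. Among the 13647 probe sets outside the dimmest 40%, a larger gap between the Col-0 arrays was seen in 1.09%, 2.21% and 6.95%, and the median gap was 0.19. On the RECA1-OE arrays the same 3 probe sets differed by 0.08, 0.08 and 0.03, where the median gap was 0.18. Col-0 replicate 2 was the lower array for AT4G12290 and AT3G43670 and the higher one for AT1G31690.

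**Figure D3:**
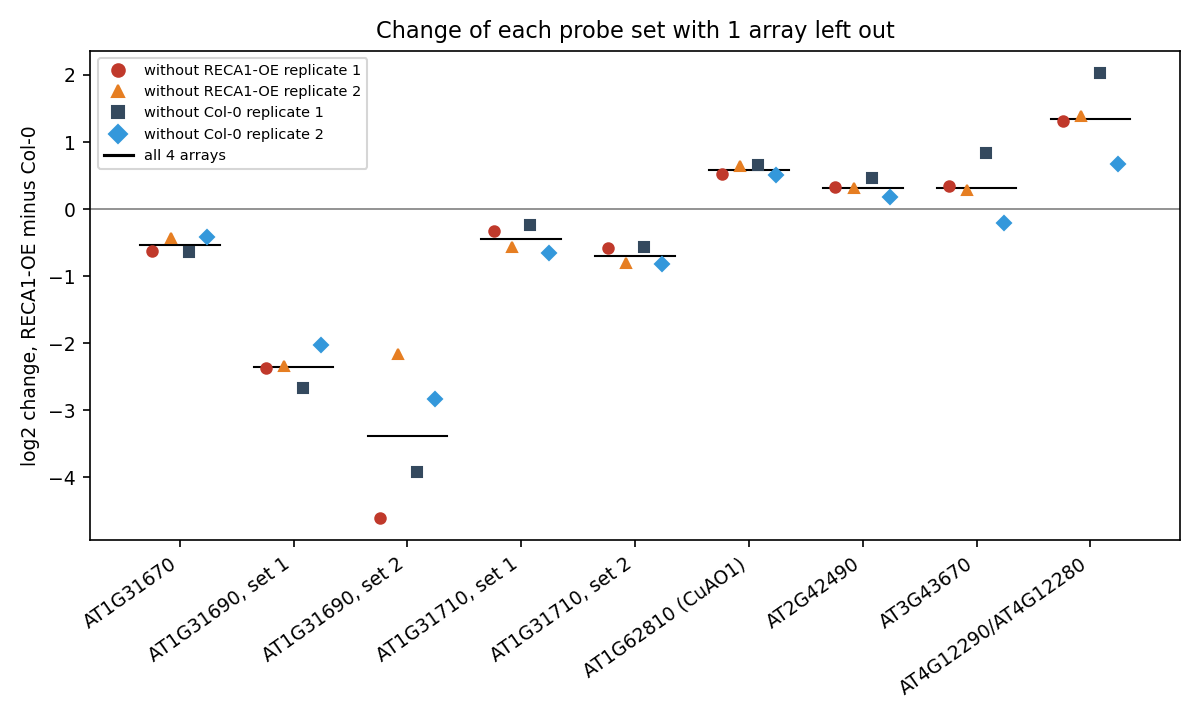
Log2 change, RECA1-OE minus Col-0 (vertical axis), of each copper amine oxidase probe set (horizontal axis) with all 4 arrays (black lines) and with 1 array left out (coloured symbols). AT3G43670 crosses 0, at -0.20 without Col-0 replicate 2, and every other probe set keeps its sign.

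The fall of AT1G31690 was next set beside the genes around it. AT1G31670, AT1G31690 and AT1G31710 follow each other with 0 annotated genes between them in the TAIR10.1 annotation. Of the 19 flanking genes measured between loci AT1G31500 and AT1G31900, limma called 0, where the background was 7.86%, and 2 had an unadjusted p under 0.05, where the background was 24.9%. The flanking genes had a median log2 change of -0.00135, with 10 lower and 9 higher in RECA1-OE, and 12 of the 19 lay in the dimmest 40% of probe sets. AT1G31720, the measured gene next to AT1G31710, had log2 signals of 4.29 and 4.75 in RECA1-OE and 5.77 and 5.16 in Col-0, and its change of -0.94 ± 0.50 (SE) was not called (limma adjusted p = 0.309). AT1G31850 had a change of -0.62 ± 0.18 (SE) with a limma adjusted p of 0.0975, and it was called without Col-0 replicate 1. AT1G31540, at 1.63 ± 0.56 (SE), and ECS1, at 0.42 ± 0.22 (SE), did not pass either, their adjusted p by limma being 0.138 and 0.297.

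**Figure D4:**
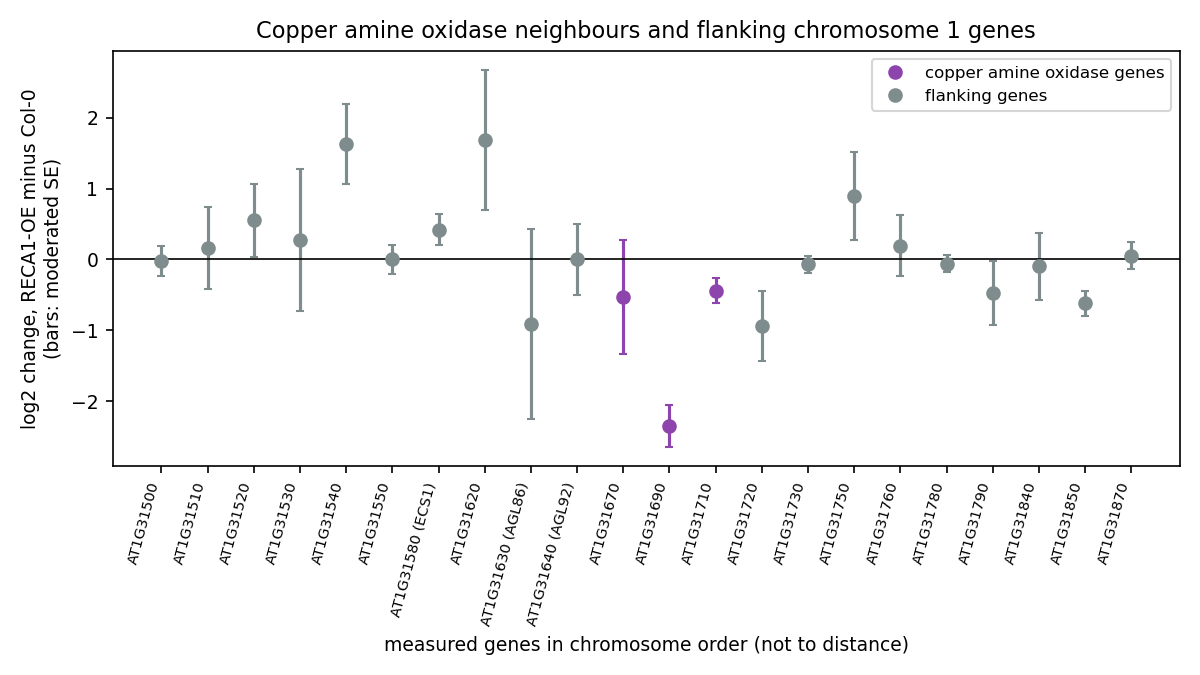
Log2 change, RECA1-OE minus Col-0 (vertical axis), with moderated SE as bars, of the 22 measured genes from AT1G31500 to AT1G31870 in chromosome order (horizontal axis, not to distance). Purple points are the 3 copper amine oxidase genes and grey points the 19 flanking genes. AT1G31690, for whose fall the family was chosen, stands at -2.35, and the flanking genes lie between -0.94 and 1.69.

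The pathway that feeds the amine oxidases was covered by few named probe sets. Of 14 listed genes of polyamine synthesis 3 were measured, all of them genes of S-adenosylmethionine decarboxylase, which supplies the aminopropyl groups of spermidine and spermine. Of these 1 fell, 0 rose and 2 did not pass, where the background was 3.31% for lower and 4.55% for higher calls, and their median log2 change was -0.557. AT5G15950 had log2 signals of 7.75 and 7.59 in RECA1-OE, against 9.13 and 9.11 in Col-0, so both RECA1-OE arrays were well below both Col-0 arrays. It fell by 1.45 ± 0.15 on the log2 scale (SE), which is 2.73-fold, and its adjusted p by limma was 0.00985. Leaving out either RECA1-OE array, or fitting no mean-variance trend, ended that call. Under each of these settings no probe set at all was called, so the loss is not particular to AT5G15950. AT3G25570 had 7.51 and 8.05 in RECA1-OE and 8.30 and 8.37 in Col-0, with a change of -0.56 ± 0.23 (SE) and a limma adjusted p of 0.198. SAMDC (AT3G02470) had 13.50 and 13.68 in RECA1-OE and 13.96 and 13.75 in Col-0, with a change of -0.27 ± 0.19 (SE) and a limma adjusted p of 0.438. In each of the 3 genes the RECA1-OE values were below the Col-0 values without overlap, which held for 30.4% of all probe sets.

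Downstream of the amine oxidases, 2 of 11 listed genes of aminoaldehyde and GABA metabolism were measured, and neither passed. Both encode aldehyde dehydrogenases that can oxidise aminoaldehydes. ALDH10A8 had a change of 0.08 ± 0.13 (SE) and ALDH10A9 of 0.22 ± 0.13 (SE), and their adjusted p by limma was 0.745 and 0.359. By limma 0 of the 2 were called, and 0 had an unadjusted p under 0.05, where the background was 7.86% and 24.9%. With 2 genes nothing is read from these counts.

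Of 10 listed genes of hydrogen peroxide removal 2 were measured, 1 of which fell and 0 rose, where the background was 3.31% for lower and 4.55% for higher calls. TAPX, the ascorbate peroxidase of the thylakoid membrane, had log2 signals of 10.01 and 9.87 in RECA1-OE, against 10.82 and 11.13 in Col-0. It fell by 1.03 ± 0.15 on the log2 scale (SE), which is 2.05-fold, and its adjusted p by limma was 0.0191. Leaving out either RECA1-OE array or Col-0 replicate 2, or fitting no mean-variance trend, ended the call. SAPX, its counterpart in the stroma and mitochondria, had a change of 0.09 ± 0.13 (SE) and a limma adjusted p of 0.71. Of 19 listed genes of copper supply only CCS, the copper chaperone of superoxide dismutase, was measured, with a change of -0.40 ± 0.27 (SE) and a limma adjusted p of 0.416. The 5 listed FAD-dependent polyamine oxidases and the 5 polyamine transporters had 0 probe sets paired with a single gene.

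**Figure D5:**
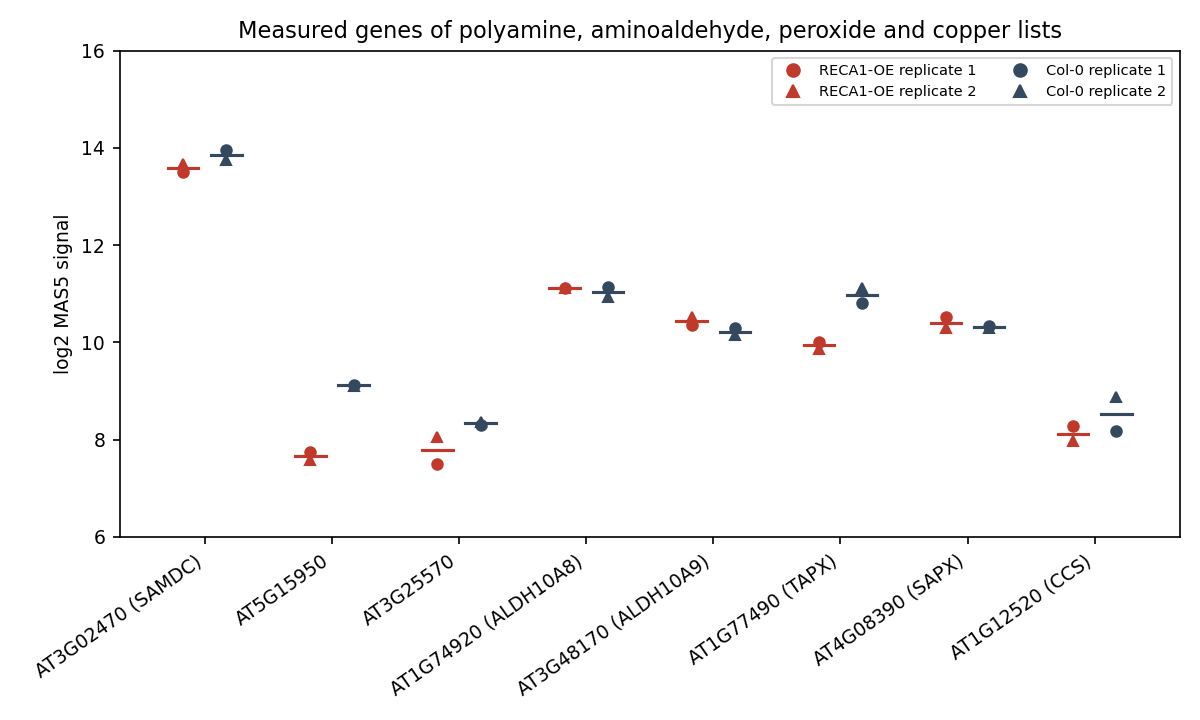
Log2 MAS5 signal (vertical axis) of the 8 measured genes of polyamine synthesis, aminoaldehyde metabolism, hydrogen peroxide removal and copper supply (horizontal axis) on each array. Circles are replicate 1 and triangles replicate 2, red for RECA1-OE and dark blue for Col-0, and short lines are group means. AT5G15950 and TAPX have the widest gaps between the groups.

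Since several amine oxidases are known from roots and guard cells, markers of those cells were set beside the members. Of 7 root markers 3 were measured, with none at 0. Limma called 0 of them, with 0 at an unadjusted p under 0.05, where the background was 7.86% and 24.9%. Their summed linear signal was 9298 and 13121 in RECA1-OE, against 18247 and 12136 in Col-0, nearly all of it from PYK10, a root beta-glucosidase. PYK10 had log2 signals of 13.15 and 13.65 in RECA1-OE and 14.13 and 13.53 in Col-0, with overlapping groups. The root hair expansins were lower in RECA1-OE without overlap, which held for 30.4% of all probe sets. EXPA7 had 6.70 and 6.68 in RECA1-OE and 6.82 and 6.98 in Col-0. EXPA18 had 6.90 and 7.14 in RECA1-OE and 8.03 and 7.33 in Col-0. The mean of EXPA7, 6.80, lay in the dimmest 40% of probe sets, and its SE exceeded its change. The changes of PYK10, EXPA7 and EXPA18 were -0.43 ± 0.28, -0.21 ± 0.26 and -0.66 ± 0.30 (SE). Of 5 guard cell markers 2 were measured, with none at 0. Limma called 0 of these, with 0 at an unadjusted p under 0.05, where the background was again 7.86% and 24.9%. Their summed linear signal was 6937 and 5905 in RECA1-OE, against 5247 and 4901 in Col-0, nearly all of it from AT1G22690. AT1G22690 had a change of 0.36 ± 0.15 (SE) and FMA, a factor of guard cell fate, of -0.30 ± 0.23 (SE). The groups overlapped for FMA. AT1G22690 was higher in RECA1-OE without overlap, which held for 25.5% of all probe sets. The part of root or guard cell share in the members' values was not tested.

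The genes whose pattern over the 4 arrays was nearest to that of the brighter AT1G31690 set were AT2G06500, AT3G60060 and AT1G51080. Likeness was the root mean square distance between log2 values centred on each gene's own mean, and it came to 0.11, 0.12 and 0.13 log2 units. AT1G51080 had log2 signals of 5.58 and 5.63 in RECA1-OE, against 7.54 and 7.96 in Col-0. It was called lower by limma, whereas AT2G06500 and AT3G60060, both dim, were not. With 4 arrays in 2 groups such likeness mostly repeats the difference between the groups.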

How the data were processed

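Each array's deposited log2 signals, 1 for each probe set, came from MAS5 (no version stated) according to the submitters' processing notes, and ran from -4.25 to 14.96. The log base and the scaling were inferred, since linear means trimmed by 2% at each end were 495.3 to 495.8 on all arrays. Values under a linear signal of 1, 151 to 246 per array, were set to 1, which left the signals of all members unchanged. The effect of this floor on the SE and adjusted p was not tested by itself. Detection calls were not used here. Probe sets were named by Entrez ID through the platform annotation and the TAIR10.1 gene table, of which 13436 were paired with 1 gene and 503 with several. No coordinates are given, because the values name no build.

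RECA1-OE was compared with Col-0 over all 22746 probe sets with limma 3.58.1 in R 4.3.3 (lmFit and eBayes, trend over mean signal, two-sided, Benjamini-Hochberg), and a call is an adjusted p under 0.05. The fit had 2 residual degrees of freedom, to which moderation added 3.94. SE are moderated, and the number of arrays limits their precision. Genes outside the family are represented by their brightest probe set. The fit was also run on simulated data with independent noise, which does not show how well it suits these arrays. Members and gene lists were chosen with earlier results of these data known. Named were all members and, per list, up to 4 genes, called ones by size and then by smallest unadjusted p. Alternatives were quantile normalization, median centring, leaving out the dimmest 40% or 60%, adding 16 before log2, a replicate block, no trend, an adjusted p under 0.1 and leaving out each array.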

Additional observations from a re-analysis of the deposited data

How the results depend on the processing

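Over all probe sets limma called 1787. It called 2716 with the dimmest 40% left out (1356 higher, 1360 lower in RECA1-OE, against 1035 and 752 with all kept), 3331 at an adjusted p under 0.1, and 0 without the mean-variance trend, where 4555 had an unadjusted p under 0.05. Leaving out 1 array gave 0 to 1697 calls, with 0 without RECA1-OE replicate 1 or replicate 2 (3872 and 4524 at an unadjusted p under 0.05) and 636 without Col-0 replicate 2. Of the 9 copper amine oxidase probe sets 1 was called, against 4 with the dimmest 40% left out (of 7 measured), 4 at an adjusted p under 0.1, and 0 without the trend, where 4 had an unadjusted p under 0.05. Leaving out 1 array gave 0 to 3, with 3 without Col-0 replicate 1 and 0 without each other array (3 to 5 at an unadjusted p under 0.05). The polyamine synthesis and hydrogen peroxide removal lists had 1 call each, and each had 0 by limma without the trend, where 1 gene had an unadjusted p under 0.05. Without 1 array these lists had 0 to 1 calls, and where they had 0, 1 to 2 genes had an unadjusted p under 0.05. The flanking genes had 0 calls, 1 at an adjusted p under 0.1, and 0 to 1 without 1 array. In a fit without 1 array the lone sample of a group is assumed to vary like the other group.

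In direction, the measured chromosome 1 neighbours were lower and the other measured members higher under every setting listed, with 1 exception. AT3G43670 turned to -0.20 without Col-0 replicate 2 (up to 0.83 without the other arrays). With the dimmest 40% left out 2 neighbours were measured, and with the dimmest 60% left out 1 neighbour and 3 other members. All settings reuse the same arrays, so a kept sign is not independent evidence. Among the pathway genes ALDH10A8 ranged from -0.02 without Col-0 replicate 2 to 0.19, and SAPX from -0.02 without RECA1-OE replicate 1 to 0.20. Same-numbered samples did not deviate together across all probe sets (r = 0.00335). A single r over all probe sets cannot tell whether some genes share an effect of the number. The labels name no batch, and the main fit did not pair the samples. With the replicate block 1440 probe sets were called, among them 1 of the copper amine oxidase sets. The cause of these differences was not tested.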
